A study of Mus musculus with 12 samples.

Results

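Transcripts of 10 immunoglobulin superfamily receptors and ligands that T cells use to tune activation were measured in splenic CD4 T cells: Pdcd1, Icos, Cd28, Btla, Tigit, Lag3, Havcr2, Cd200, Cd160 and Cd96. They were chosen by name, with earlier results of these data known, so their shares of calls are not those of a blind choice. All 10 had an entry of their own in each of the 12 libraries, out of 23246 genes or joint genes in the tables. The cells came from spleens of C57BL/6 mice. The mice labelled cKO carried CD4-cre on floxed Ets1 alleles, and the mice called WT here carried the same floxed Ets1 alleles without Cre, so the floxed alleles were common to all groups. From each genotype, CD4+ cells positive for CXCR5 and PD-1 (T follicular helper, TFH) and CD4+ cells negative for both (non-TFH) were sorted, which gave 4 groups of 3 libraries: cKO TFH, WT TFH, cKO non-TFH and WT non-TFH. CD4-cre acts from the thymus onward in the T cell lineage, which includes CD8 T cells and regulatory T cells. The sources used here give neither the age nor any treatment of the mice. They do not say that replicates were separate mice, so each p-value is set against the scatter of these libraries, and that scatter may be technical.

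T cells are switched on by the antigen receptor together with a co-stimulatory receptor, and CD28, which binds CD80 and CD86, is the main co-stimulatory receptor of resting T cells. ICOS is its induced relative and is required for TFH cells. PD-1 (encoded by Pdcd1), BTLA, TIGIT, LAG-3 and TIM-3 (encoded by Havcr2) restrain activated cells, and CD96 binds the same ligand family as TIGIT. CD160 shares the ligand HVEM with BTLA, and CD200 is itself a surface ligand that restrains myeloid cells carrying its receptor. Activated TFH cells are known for high PD-1, ICOS, BTLA and CD200. Because PD-1 was used for the sort, differences in Pdcd1 between TFH and non-TFH cells are a description and not a finding.

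Levels are FPKM (fragments mapped per kilobase of transcript, relative to the library's total), scaled between libraries so that the median gene matched. Because FPKM is per length, levels of different genes can be set side by side. Depth is not given in the tables. An estimate from the confidence bounds of unnamed loci was 11.9 to 14.2 M fragments in TFH and 13.7 to 15.6 M in non-TFH libraries. Ets1, the targeted gene, stood at 223, 270 and 265 FPKM in the cKO TFH libraries and at 170, 203 and 214 FPKM in the WT TFH libraries. In non-TFH cells it stood at 413, 408 and 379 FPKM in cKO and at 410, 410 and 401 FPKM in WT libraries. The Ets1 value was higher in TFH cells labelled cKO (log2 change 0.37 ± 0.1 SE, limma adjusted p = 0.015, passing in 16 of 20 alternatives) and did not differ detectably in non-TFH cells (-0.03 ± 0.1, adjusted p = 0.91). One value for the whole gene also counts exons outside the floxed part, so it is no check of the deletion, and genotypes are given as labelled. The defining T cell genes Cd3d, Cd3e, Cd3g, Cd4 and Cd5 summed to 2631 to 3211 FPKM in cKO TFH, 2935 to 3052 in WT TFH, 1932 to 2270 in cKO non-TFH and 1718 to 1851 in WT non-TFH libraries. The 7 TFH markers with a value in every library, among them Cxcr5 and Bcl6, summed to 615 to 726 FPKM in cKO TFH, 383 to 480 in WT TFH, 22.8 to 29.5 in cKO non-TFH and 13.7 to 26.1 in WT non-TFH libraries. That TFH sum leaves out Sh2d1a and Cd40lg, which lack a value in 1 WT non-TFH library. Sh2d1a, the most abundant of the TFH markers in TFH cells, had 1044 ± 110 FPKM in cKO and 374 ± 41 FPKM in WT TFH libraries. Cd40lg had 148 ± 20 FPKM in cKO and 158 ± 9.7 FPKM in WT TFH libraries (SD, n = 3 each). Cxcr5, the other gate gene, ranged from 125 to 157 FPKM in cKO TFH, 154 to 252 in WT TFH, 0 to 4.36 in cKO non-TFH and 0 to 12.2 in WT non-TFH libraries, where a listed 0 can be a failed estimate. Between genotypes 6 of 9 TFH markers rose and 1 fell in TFH cells, and 4 rose and 0 fell in non-TFH cells (0 fell at an unadjusted p under 0.05). In the comparison of cKO with WT TFH cells, 11 of 13 tested macrophage and monocyte markers fell and 2 rose. The sum of the 11 such markers with a value in every library was 211 to 266 FPKM in cKO TFH and 1114 to 2005 FPKM in WT TFH libraries. That sum leaves out Lyz2 and Tyrobp, which lack a value in 1 WT TFH library. Lyz2, the most abundant of the 13 in cKO TFH cells, was 1 of the 2 that rose, with 470 to 756 FPKM in cKO TFH (n = 3) and 278 to 289 FPKM in WT TFH libraries (n = 2), while Tyrobp fell, with 49.2 to 72.1 FPKM in cKO TFH (n = 3) and 202 to 332 FPKM in WT TFH libraries (n = 2). Itgam was the other that rose, with 27.6 ± 2.9 FPKM in cKO and 1.35 ± 0.5 FPKM in WT TFH libraries (SD, n = 3 each). The list thus did not move as one.

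The genes lie on 5 chromosomes of GRCm38 (mm10), by the GENCODE M21 annotation. Cd28 (chromosome 1, 60716800 to 60773359) and Icos (chromosome 1, 60977927 to 61000320) lie on the plus strand with Ctla4 between them, and Pdcd1 lies elsewhere on chromosome 1 (94038305 to 94052553, minus strand). A group of 4 genes shares a stretch of chromosome 16 spanning 2.47 Mb, namely Tigit (43648867 to 43664146, minus), Btla (45224315 to 45257670, plus), Cd200 (45382135 to 45409053, minus) and Cd96 (46035657 to 46120251, minus). Cd160 (chromosome 3, 96798763 to 96829351, minus), Lag3 (chromosome 6, 124904361 to 124911705, minus) and Havcr2 (chromosome 11, 46454935 to 46481255, plus) stand apart. All 10 are protein-coding. Cd160 overlaps Pdzk1 on the opposite strand and Icos overlaps a gene model awaiting experimental evidence on its own strand, and although the library kit marks strand, the sources used here do not say whether counting used it.

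ETS proteins bind DNA at a GGAA core. The 6 letters GGAAGT were searched on both strands, with no overlap between matches, in the RefSeq promoter windows of GRCm38.p6 (250 bases before to 50 after a start). Windows were held for 7 of the 10 genes (8 windows, Cd160 having 2), and 3 of the 8 held the letters, against 23.8% of 32851 windows in all. The shorter core GGAA is in 96% of all windows. The 4 windows below are the 3 with a match and, as an example without one, that of Tigit, which had the largest change of the 10. Capitals mark GGAAGT or its reverse complement ACTTCC. The windows of Pdcd1, Cd200 and Cd96 and the outer window of Cd160, which are not shown, hold none either. Genes with and without the letters were called between genotypes, as was Lag3, for which no window was held. Whether the letters go with the calls was not tested.
Btla, chr16:45224087-45224386, plus strand: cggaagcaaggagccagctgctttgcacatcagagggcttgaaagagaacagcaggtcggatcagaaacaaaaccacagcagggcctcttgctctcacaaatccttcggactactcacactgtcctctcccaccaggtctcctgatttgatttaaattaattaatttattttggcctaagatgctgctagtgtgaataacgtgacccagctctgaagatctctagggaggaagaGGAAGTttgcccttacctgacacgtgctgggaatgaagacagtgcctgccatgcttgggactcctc
Havcr2, chr11:46454681-46454980, plus strand: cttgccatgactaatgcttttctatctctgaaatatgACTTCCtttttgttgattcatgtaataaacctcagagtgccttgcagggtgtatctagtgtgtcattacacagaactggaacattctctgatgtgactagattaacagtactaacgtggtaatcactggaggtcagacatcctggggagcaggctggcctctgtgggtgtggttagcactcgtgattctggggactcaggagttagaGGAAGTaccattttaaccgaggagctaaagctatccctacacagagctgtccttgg
Cd160, inner start, chr3:96814472-96814771, minus strand: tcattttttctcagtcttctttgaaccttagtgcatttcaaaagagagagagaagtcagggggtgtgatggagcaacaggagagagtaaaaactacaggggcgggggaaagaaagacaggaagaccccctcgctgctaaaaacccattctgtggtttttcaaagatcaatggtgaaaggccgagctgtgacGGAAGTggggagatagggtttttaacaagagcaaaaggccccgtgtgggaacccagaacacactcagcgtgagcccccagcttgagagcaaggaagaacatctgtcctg
Tigit, chr16:43664135-43664434, minus strand: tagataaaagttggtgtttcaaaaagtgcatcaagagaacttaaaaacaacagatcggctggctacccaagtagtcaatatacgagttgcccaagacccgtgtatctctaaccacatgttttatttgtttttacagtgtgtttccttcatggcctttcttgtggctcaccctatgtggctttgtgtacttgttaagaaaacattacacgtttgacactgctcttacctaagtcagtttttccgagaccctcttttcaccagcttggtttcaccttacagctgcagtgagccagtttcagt
The match of Btla began 16 bases before its start, the nearer match of Havcr2 began 6 bases before, and that of Cd160 began 59 bases before its inner start. A match is a description of letters and not a binding site.

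In TFH cells labelled cKO, Pdcd1, Btla, Cd200, Cd160 and Cd96 rose relative to WT TFH cells, and Lag3 and Havcr2 fell. Icos, Cd28 and Tigit did not pass. These are 7 of 10 called, against 30.7% of all 11112 genes tested by limma in this comparison, of which 15.6% rose and 15% fell. The genotype groups did not overlap for 8 of the 10, 6 higher and 2 lower, against 37.4% of all genes with a value in each of these libraries (19.8% higher and 17.6% lower). Their median log2 change was 0.36, against 0.04 over all genes tested. These counts hold Havcr2, which reached 1 FPKM in 3 WT TFH, 2 cKO TFH and 0 non-TFH libraries. It met the filter of 3 libraries only with WT TFH cells, where it was the higher, so its fall is a description. Without Pdcd1, a sorted marker, 4 of the other 9 rose and 2 fell (Lag3 and Havcr2), with a median of 0.24 over those 9. In bulk libraries, fewer cells of a type and less RNA per cell cannot be told apart.

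The receptor that marks the gate differed within it. Pdcd1 had 604, 601 and 705 FPKM in the cKO TFH libraries, against 365, 379 and 316 FPKM in the WT TFH libraries. The genotypes did not overlap, and the log2 change was 0.85 ± 0.1 (SE, adjusted p = 9e-05 by limma with Benjamini-Hochberg adjustment). In non-TFH cells, gated as PD-1 negative, Pdcd1 stayed at 1.55, 1.39 and 1.45 FPKM in cKO and 1.61, 1.48 and 1.64 FPKM in WT libraries, with a log2 change of -0.06 ± 0.1 that did not pass. The PD-1 negative gate holds Pdcd1 low in both genotypes, so the difference of the 2 changes, 0.91 ± 0.14 log2, is a description only.

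Btla, the HVEM receptor, had 130, 116 and 129 FPKM in cKO TFH libraries, against 56.4, 55.8 and 67.1 FPKM in WT TFH libraries. The genotypes were far from overlapping in TFH cells (log2 change 1.06 ± 0.18, limma adjusted p = 0.00098). Non-TFH cells had 82.5, 94.9 and 53.3 FPKM in cKO and 90.6, 83.4 and 104 FPKM in WT libraries, which overlap (-0.3 ± 0.18, adjusted p = 0.3 by limma). The low cKO library, replicate 3, is among 3 non-TFH libraries in which the assembled Btla entry was wider than in the other 9. The difference of the 2 changes was 1.36 ± 0.25 log2 (limma adjusted p = 0.0032).

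Cd160, the other HVEM receptor, showed the largest rise in TFH cells among the 10. It had 69.7, 43 and 46.5 FPKM in cKO TFH libraries, against 19.4, 18.4 and 15.3 FPKM in WT TFH libraries, so that the lowest cKO library was above every WT library. The log2 change was 1.51 ± 0.18 (limma adjusted p = 9.6e-05). The assembled Cd160 entry was over 100 bp wider than in most libraries in cKO TFH replicate 1, the highest library, and in cKO non-TFH replicate 2. The rise in TFH cells passed in 20 of 20 alternatives. In non-TFH cells Cd160 was near the floor of the test in both genotypes, at 1.1, 0.814 and 0.753 FPKM in cKO and 1.4, 1.54 and 1.54 FPKM in WT libraries. All 3 cKO values were below all 3 WT values there, but the change of -0.4 ± 0.18 did not pass (adjusted p = 0.16). It did pass with the 2 non-TFH groups fitted alone (adjusted p = 0.023), with array weights (0.013) and with a pseudocount of 0.1 (0.039). The change differed between cell types by 1.91 ± 0.26 log2 (limma adjusted p = 0.00044).

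Cd200 had 157, 136 and 122 FPKM in cKO TFH libraries, against 60.1, 57.2 and 64.2 FPKM in WT TFH libraries. Its log2 change of 1.17 ± 0.11 (limma adjusted p = 1.9e-05) had the smallest adjusted p of the 10 in TFH cells. It was higher in non-TFH cells of the cKO too, at 8.28, 9.3 and 9.91 FPKM, against 6.71, 6.32 and 6.97 FPKM in WT non-TFH libraries (0.41 ± 0.11, limma adjusted p = 0.025). That smaller rise did not pass without cKO non-TFH replicate 2 (adjusted p = 0.075) or 3 (0.095), or without WT non-TFH replicate 1 (0.067) or 2 (0.089). The rise in TFH cells exceeded that in non-TFH cells by 0.77 ± 0.16 log2 (limma adjusted p = 0.0061). B cells make Btla and Cd200 too, and the 9 B cell markers summed to 40.3 to 44.9 FPKM in cKO TFH and 67.3 to 74.7 FPKM in WT TFH libraries, so these markers were lower where Btla and Cd200 were higher. Of the 7 tested, 3 fell and 4 did not pass, and their part in the result was not tested. Cytotoxic cells make Cd160, and the 8 CD8 and NK markers with a value in every library summed to 54.6 to 69.5 FPKM in cKO TFH and 29.3 to 31.4 FPKM in WT TFH libraries. Most of that difference is Cd8b1, with 39.8 ± 5.3 FPKM in cKO and 8.41 ± 2.1 FPKM in WT TFH libraries (SD, n = 3 each). The sum leaves out Nkg7, the most abundant of the list in TFH cells, which lacks 1 WT value and did not pass, with 107 to 182 FPKM in cKO TFH (n = 3) and 120 to 161 FPKM in WT TFH libraries (n = 2). Of the 9 tested 4 rose, 2 fell and 3 did not pass, Cd8a stood at 3.22 ± 0.77 FPKM in cKO and 1.63 ± 0.33 FPKM in WT TFH libraries (SD, n = 3 each), and their part in the result was not tested.

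Lag3, whose protein binds MHC class II, moved in opposite directions in the 2 cell types. In TFH cells it had 2.01, 1.21 and 1.45 FPKM in cKO libraries, against 6.85, 5.17 and 4.68 FPKM in WT libraries, so that WT was higher in every library (log2 change -1.36 ± 0.19, limma adjusted p = 0.00026). Non-TFH cells had 3.78, 3.25 and 3.91 FPKM in cKO libraries, against 1.44, 0.909 and 1.1 FPKM in WT libraries, a rise in every library (1.12 ± 0.19, limma adjusted p = 0.0012). The 2 changes differed by -2.47 ± 0.27 log2 (limma adjusted p = 9.3e-05). The authors' deposited lower confidence bound in WT non-TFH replicate 1 was 0.0241 FPKM before scaling, so the low levels of that group are imprecise. The fold change at such levels is understated by the pseudocount of 1: the ratio of mean levels was 0.28 in TFH cells and 3.17 in non-TFH cells.

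Havcr2, which encodes TIM-3, had 2.74, 1.92 and 0.941 FPKM in cKO TFH libraries, against 6.96, 3.8 and 3.71 FPKM in WT TFH libraries. The groups did not overlap (log2 change -1.03 ± 0.27, limma adjusted p = 0.012), though the change did not pass with the 2 TFH groups fitted alone (adjusted p = 0.071). Non-TFH cells stood below 1 FPKM throughout, at 0.31, 0.653 and 0.441 FPKM in cKO and at 0.0256, 0.0259 and 0.112 FPKM in WT libraries. The deposited lower bound was 0 FPKM in all 3 WT non-TFH libraries, and the change there did not pass (0.47 ± 0.27, limma adjusted p = 0.27). It passed with a pseudocount of 0.1 (1.88, adjusted p = 0.015), with the 2 groups alone (0.47, 0.016) and with array weights (0.48, 0.03). Havcr2 was tested only through its TFH libraries, and met the filter only with WT TFH cells. Its fall in TFH cells and the difference of the 2 changes, -1.5 ± 0.38 log2, are therefore descriptions. Macrophages and dendritic cells also make Havcr2. Most of the macrophage markers fell with it, such as Csf1r with 19.3 ± 2 FPKM in cKO and 152 ± 30 FPKM in WT TFH libraries (SD, n = 3 each), but Lyz2 and Itgam rose, as given above. The 7 dendritic cell markers summed to 6.41 to 14.6 FPKM in cKO TFH and 24.3 to 35.8 FPKM in WT TFH libraries. Of 5 dendritic cell markers tested 2 fell and 3 did not pass. The part of these cells in the Havcr2 and Lag3 values was not tested.

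Tigit, the inhibitory receptor for nectin-like ligands, changed in non-TFH cells and not detectably in TFH cells. Its level in non-TFH cells was 23.9, 27.1 and 30.8 FPKM in the libraries labelled cKO, against 0.687, 0.436 and 0.376 FPKM in WT libraries. The change of 4.24 ± 0.14 log2 (limma adjusted p = 2.5e-09) was the largest genotype change of the 10, and the ratio of the mean levels was 54.6. Before scaling, the deposited lower bounds of the WT values were 0.0204, 0.0394 and 0 FPKM, while the bounds of the cKO values ran from 19.5 to 31.3 FPKM. In TFH cells Tigit had 79.5, 98.1 and 95 FPKM in cKO and 78.9, 74.3 and 89.5 FPKM in WT libraries, which overlap (0.16 ± 0.14, adjusted p = 0.4). The changes differed between the cell types by -4.07 ± 0.19 log2 (limma adjusted p = 1.6e-07). The assembled Tigit entry was over 100 bp wider in all 9 libraries of the 3 groups with higher levels than in the 3 WT non-TFH libraries.

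Cd96, whose protein shares ligands with TIGIT, was the only receptor besides Cd200 called higher in both cell types by limma. Non-TFH cells had 116, 119 and 121 FPKM in cKO libraries, against 74.1, 66.7 and 68.1 FPKM in WT libraries, which are well separated (0.76 ± 0.15, adjusted p = 0.0039). In TFH cells it had 81.4, 110 and 86.2 FPKM in cKO libraries, against 50.1, 75 and 73.7 FPKM in WT libraries (0.49 ± 0.15, limma adjusted p = 0.031). The call in TFH cells is weak: it did not pass without WT TFH replicate 1 (adjusted p = 0.088), which is the lowest library, or cKO TFH replicate 2 (0.12), which is the highest, nor with quantile normalization (0.11), array weights (0.08), no filter (0.055) or the TFH groups alone (0.12). The change did not differ detectably between cell types (-0.27 ± 0.22, limma adjusted p = 0.45).

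The co-stimulatory pair did not pass between genotypes in either cell type. Cd28 had 137, 131 and 164 FPKM in cKO TFH and 123, 128 and 129 FPKM in WT TFH libraries. Before scaling, the deposited bounds in cKO TFH replicate 2, the 131, ran from 0 to 361 FPKM, so that value is imprecise. The 3 cKO values were just above the WT values, but the change of 0.17 ± 0.1 did not pass (adjusted p = 0.23), and its sign flipped with quantile normalization (-0.0058). In non-TFH cells Cd28 had 102, 88 and 91.4 FPKM in cKO and 91.1, 97.8 and 81.5 FPKM in WT libraries, which overlap (0.06 ± 0.1), and here too the sign flipped with quantile normalization. Icos had 183, 199 and 205 FPKM in cKO TFH and 240, 133 and 142 FPKM in WT TFH libraries. WT TFH replicate 1 stood apart at the high end, and the change of 0.24 ± 0.2 did not pass (adjusted p = 0.41); without that library it was 0.5 (adjusted p = 0.024). In non-TFH cells Icos had 13.3, 19.1 and 13.2 FPKM in cKO and 17.8, 18 and 17.3 FPKM in WT libraries (-0.23 ± 0.2, adjusted p = 0.52).

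**Figure D1:**
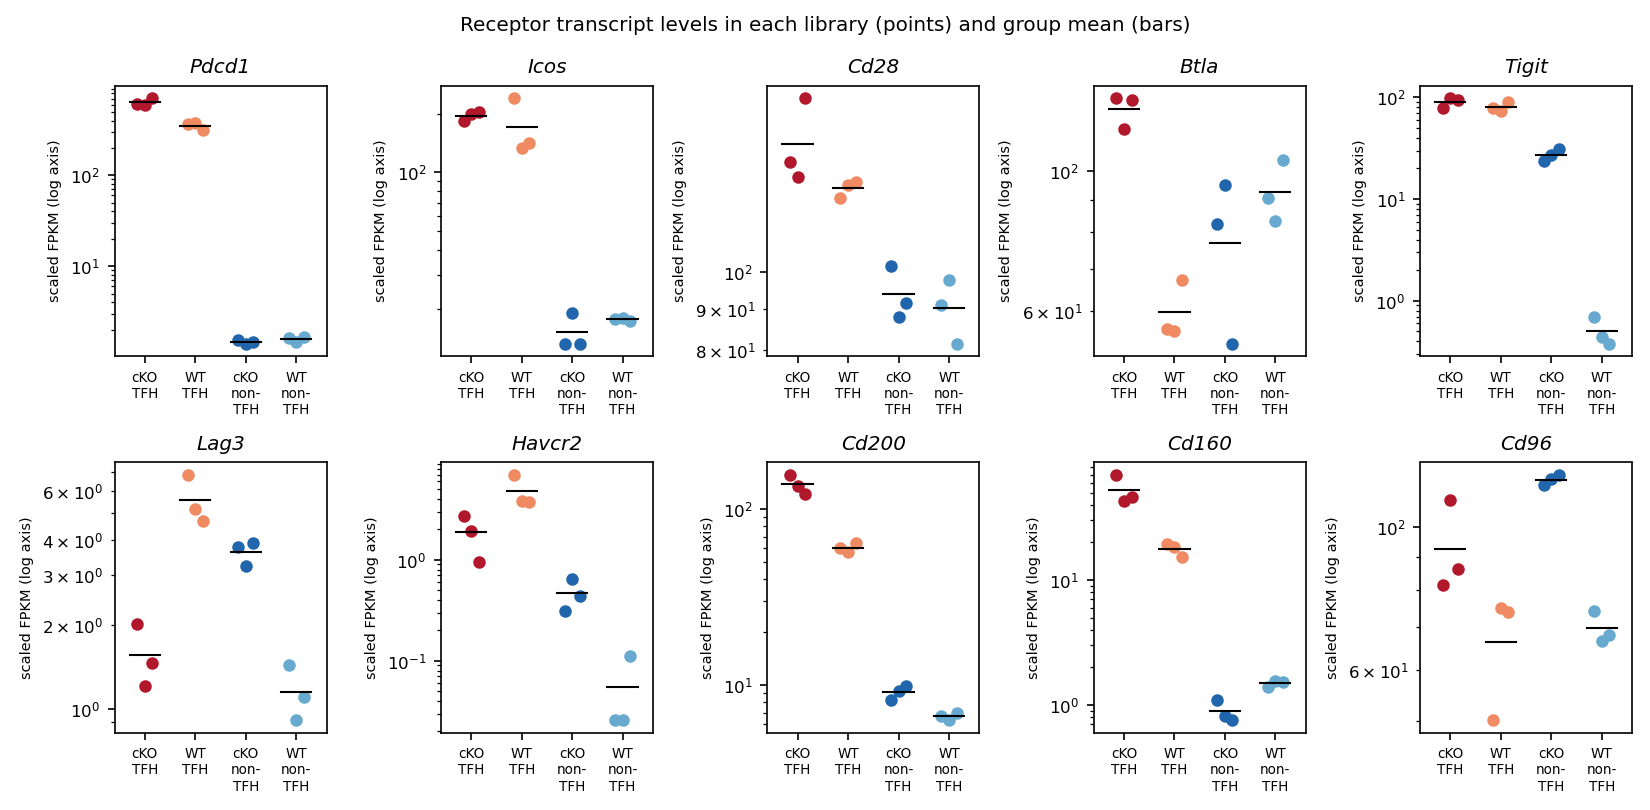
Scaled FPKM (log axis, a scale of its own for each gene) of the 10 genes in the 12 libraries. Points are libraries, bars are means of 3 libraries, and groups run cKO TFH, WT TFH, cKO non-TFH and WT non-TFH. Tigit stands at 23.9 to 30.8 FPKM in cKO non-TFH libraries and at 0.376 to 0.687 in WT non-TFH libraries, and Lag3 is lower in cKO than in WT TFH cells but higher in cKO than in WT non-TFH cells.

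In non-TFH cells labelled cKO, then, limma called 4 of the 10 higher (Tigit, Lag3, Cd96 and Cd200) and 0 lower, with 1 lower at an unadjusted p under 0.05. Of all genes tested, 20.3% were called in this comparison, 11.8% higher and 8.56% lower. The median log2 change of the 10 was 0.23, against 0.03 over all genes. Genotype groups did not overlap for 6 of the 10, 5 higher and 1 lower, against 51.7% of all genes with a value in each of these libraries (28.9% higher and 22.7% lower), so the share is near the background. Markers of other cell types also differed in the non-TFH gate. The 8 CD8 and NK markers with a value in every library summed to 156 to 184 FPKM in cKO and 50.1 to 53.2 FPKM in WT non-TFH libraries. That sum leaves out Nkg7, with 35.6 to 40.8 FPKM in cKO and a mean of 4.8 FPKM in WT non-TFH libraries. Of the 9 markers tested, 4 rose and 2 fell. The defining marker Cd8a stood at 0.258 ± 0.07 FPKM in cKO and 0.0867 ± 0.073 FPKM in WT non-TFH libraries (SD, n = 3 each), whereas Cd8b1 stood at 101 ± 5.4 FPKM in cKO and 11.7 ± 2.5 FPKM in WT non-TFH libraries (SD, n = 3 each). The 5 separable regulatory T cell markers (Il2ra, Ikzf2, Ctla4, Tnfrsf18 and Lrrc32) summed to 112 to 152 FPKM in cKO and 59.4 to 77.2 FPKM in WT non-TFH libraries, and 3 of them rose. In TFH cells they summed to 248 to 287 FPKM in cKO and 429 to 532 FPKM in WT libraries, and 3 fell. Both cell types are known to make Tigit and Lag3, and their part in the results was not tested.

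The interaction term, which asks whether the genotype change differed between the cell types, passed for 7 of the 10 genes, against 17.4% of all genes tested. Of these, Pdcd1 was held low in non-TFH cells by the gate, and Havcr2 reached 1 FPKM in TFH libraries alone, so that neither is read as support. Of the other 8 genes 5 passed. The term was positive for Btla, Cd200 and Cd160, which rose more in TFH cells. It was negative for Lag3, which fell in TFH and rose in non-TFH cells. It was also negative for Tigit, which rose in non-TFH cells and did not change detectably in TFH cells. Of all genes tested, 6.83% had a positive and 10.5% a negative call.

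**Figure D2:**
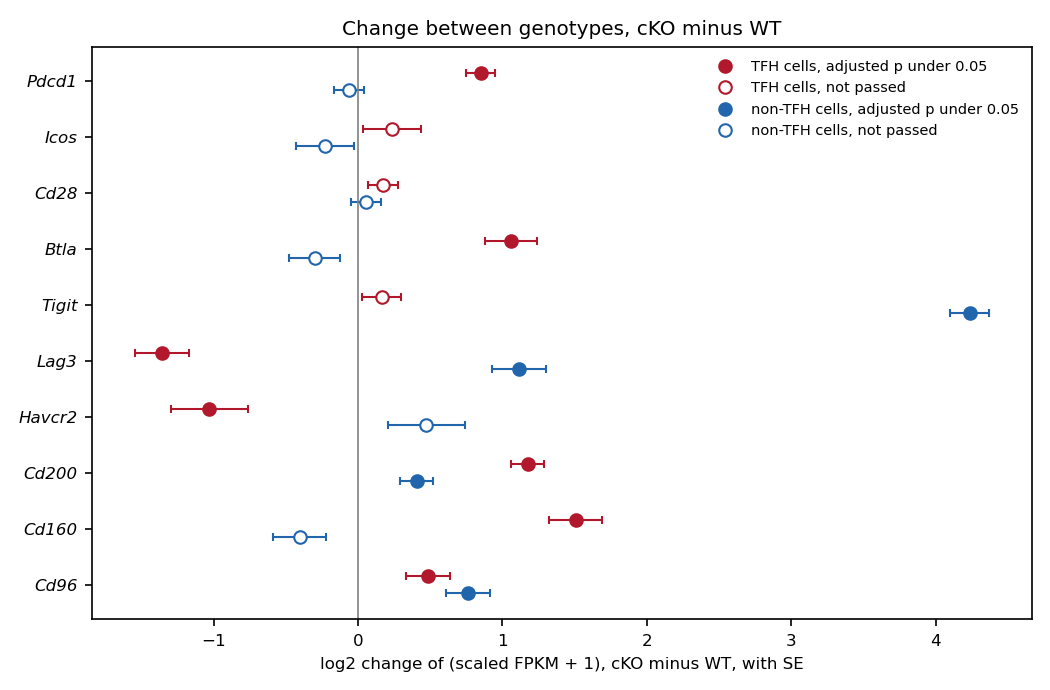
Change between genotypes (cKO minus WT) of each gene on the log2(scaled FPKM + 1) scale, with its SE from limma, in TFH and non-TFH cells. Filled points passed an adjusted p of 0.05. Lag3 lies at -1.36 in TFH and 1.12 in non-TFH cells, Tigit at 0.16 in TFH and 4.24 in non-TFH cells, and Cd160 at 1.51 in TFH and -0.4 in non-TFH cells.

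The gates were compared, TFH with non-TFH cells, to ask which receptors go with the CXCR5+ PD-1+ gate and whether the genotype alters that. In each genotype 8 of the 10 were called higher in TFH cells and 1 lower, against 67% of all genes called in cKO (33.5% higher and 33.6% lower) and 67.5% in WT mice (35.3% higher and 32.1% lower). The ranges of the gates did not overlap for 10 of the 10 in cKO (8 higher, 2 lower) and 9 in WT mice (8 higher, 1 lower), against 73.4% of all genes in cKO (36.9% higher and 36.5% lower) and 71.6% in WT mice (37.2% higher and 34.5% lower). Of the 8, 2 are descriptions: Pdcd1 marks the gate, and Havcr2 reached 1 FPKM only in TFH libraries and so passed the filter through them. The scaling matters here. Without it the median gene was higher in TFH than in non-TFH cells by 0.27 log2 in cKO and 0.37 in WT mice, and 60.3% instead of 49.9% of calls in cKO and 64.5% instead of 52.4% in WT mice were higher in TFH cells. Changes are therefore relative to the median gene.

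Icos rose in TFH cells by 3.62 ± 0.2 log2 in cKO and 3.16 ± 0.2 in WT mice, Cd200 by 3.77 ± 0.11 in cKO and 3 ± 0.11 in WT mice, and Cd160 by 4.81 ± 0.18 in cKO and 2.9 ± 0.18 in WT mice (SE, limma adjusted p of 7.7e-08 or less for each). Tigit was higher in TFH cells by 1.7 ± 0.14 log2 in cKO and by 5.77 ± 0.14 in WT mice, the ratio of mean levels being 3.33 in cKO and 162 in WT mice. Thus the gap between the gates was much narrower in cKO mice, as the interaction term above gives. Cd28 was 0.61 ± 0.1 log2 higher in cKO and 0.49 ± 0.1 in WT mice, and both calls were lost with quantile normalization (0.16 in cKO and 0.12 in WT mice).

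Btla and Lag3 changed order between the gates. In cKO mice Btla was the higher in the TFH gate (0.74 ± 0.18, limma adjusted p = 0.0032), a call lost with quantile normalization (0.34, adjusted p = 0.15). In WT mice it was the lower in that gate (-0.62 ± 0.18, limma adjusted p = 0.0087), a call lost on unscaled values (-0.26, adjusted p = 0.23) and with array weights (0.059). Lag3 did the reverse: it was lower in the TFH gate of cKO mice (-0.87 ± 0.19, limma adjusted p = 0.0015) and higher in WT mice (1.6 ± 0.19, limma adjusted p = 1.2e-05). Cd96 did not pass in either genotype (-0.37 ± 0.15, adjusted p = 0.052 in cKO, and -0.09 ± 0.15, adjusted p = 0.61 in WT mice). In cKO it passed in 8 of 21 alternatives, and in WT its sign flipped on unscaled values (0.27).

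**Figure D3:**
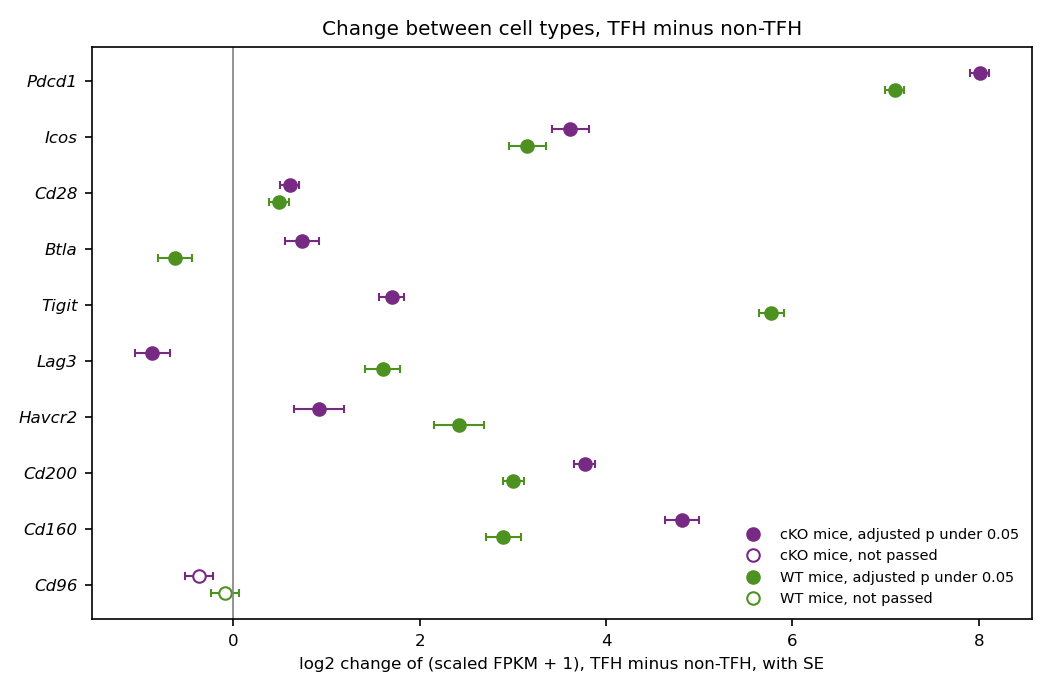
Change between cell types (TFH minus non-TFH) of each gene on the log2(scaled FPKM + 1) scale, with its SE from limma, in cKO and WT mice. Filled points passed an adjusted p of 0.05. Btla lies at 0.74 in cKO and -0.62 in WT mice, Lag3 at -0.87 in cKO and 1.6 in WT mice, and Tigit at 1.7 in cKO and 5.77 in WT mice; Pdcd1 encodes a sorted marker.

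The order of levels within each group shows which receptors dominate. In cKO TFH cells Pdcd1 (mean 637 FPKM) stood first, then Icos (196), then Cd28 (144), Cd200 (138) and Btla (125), with each of the last 3 overlapping its neighbour in range. Cd96 (92.5) and Tigit (90.8) overlapped below them, then came Cd160 (53.1), and Havcr2 (1.87) and Lag3 (1.56) overlapped at the bottom. In WT TFH cells the order was Pdcd1 (353 FPKM), Icos (172), Cd28 (127), then Tigit (80.9), Cd96 (66.3), Cd200 (60.5) and Btla (59.7), with neighbours among those 4 overlapping, then Cd160 (17.7), and Lag3 (5.56) and Havcr2 (4.82), which overlapped. Cd200 and Btla thus stood above Tigit and Cd96 in mean level in cKO and below them in WT TFH cells.

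In cKO non-TFH cells Cd96 came first (119 FPKM), then Cd28 (93.8) and Btla (76.9), which overlapped, then Tigit (27.3), Icos (15.2), Cd200 (9.16), Lag3 (3.64), Pdcd1 (1.47), Cd160 (0.889) and Havcr2 (0.468). In WT non-TFH cells Btla (92.6) and Cd28 (90.1) overlapped at the top, followed by Cd96 (69.6), Icos (17.7), Cd200 (6.66), an overlapping run of Pdcd1 (1.58), Cd160 (1.49) and Lag3 (1.15), then Tigit (0.5) and Havcr2 (0.0546). Tigit thus ranked 4 of 10 in cKO and 9 of 10 in WT non-TFH cells. Summed over the 10 genes, the level was 1437 to 1555 FPKM in cKO TFH, 905 to 1006 in WT TFH, 326 to 364 in cKO non-TFH and 277 to 285 in WT non-TFH libraries. Pdcd1 made up 41.8% to 45.3% of that sum in cKO TFH and 34.9% to 40.8% in WT TFH libraries.

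The binding partners of these receptors were read from a list of 16 named genes, 11 of which could be tested. Between genotypes 2 rose and 4 fell in TFH cells, while 6 rose and 1 fell among non-TFH cells. Of all genes tested, 15.6% rose and 15% fell in TFH cells, and 11.8% rose and 8.56% fell in non-TFH cells. The median log2 change was -0.01 in TFH and 0.56 in non-TFH cells, against 0.04 for TFH and 0.03 for non-TFH cells over all genes. Pdcd1lg2, which encodes the PD-1 ligand PD-L2, rose in TFH cells to 56 ± 20 FPKM in cKO, against 16.7 ± 2.8 FPKM in WT libraries, and in non-TFH cells to 8.06 ± 2.8 FPKM in cKO, against 0.797 ± 0.31 FPKM in WT libraries (SD, n = 3 per group). Its log2 change was 1.63 ± 0.31 (SE) for TFH and 2.29 ± 0.31 for non-TFH cells. Cd86, the CD28 ligand, went opposite ways. In TFH cells it fell to 12.5 ± 1.7 FPKM in cKO, against 35.2 ± 7.8 FPKM in WT libraries. In non-TFH cells it rose to 50.2 ± 5.1 FPKM in cKO, against 5.26 ± 0.6 FPKM in WT libraries, and the changes differed by -4.44 log2 (limma adjusted p = 4.1e-07). Antigen-presenting cells make Cd86, H2-Aa and Icosl, and beside the rise the 11 macrophage markers summed to 33.3 to 45.4 FPKM in cKO and 15 to 24.6 FPKM in WT non-TFH libraries, with 6 of 13 higher. Their part in it was not tested.

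Pvr, the ligand of TIGIT and CD96, fell in both cell types, to 4.32 ± 0.7 FPKM in cKO TFH cells, against 12 ± 0.35 FPKM in WT TFH cells, and to 4.8 ± 0.29 FPKM in cKO non-TFH cells, against 26.6 ± 3.2 FPKM in WT non-TFH cells (log2 change -1.3 ± 0.14 SE for TFH and -2.24 ± 0.14 for non-TFH cells). Icosl, the ICOS ligand, fell by 1.13 log2 in TFH cells (SE 0.26, limma adjusted p = 0.0062). H2-Aa, a chain of the MHC class II molecule that LAG-3 binds, rose in non-TFH cells by 1.44 ± 0.31 log2 (limma adjusted p = 0.0071) and stood at 10.1 ± 3 FPKM in cKO and 3.25 ± 1.8 FPKM in WT non-TFH libraries. In TFH cells it stood far higher, at 144 ± 26 FPKM in cKO and 273 ± 83 FPKM in WT libraries. The change there was downward and did not pass (-0.89 ± 0.31, limma adjusted p = 0.053). The 2 changes of H2-Aa differed by -2.33 log2 (limma adjusted p = 0.0041).

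Other co-receptors and adhesion receptors of T cells, 11 tested of a list of 17 names, rose in 2 cases and fell in 6 in TFH cells, and rose in 4 and fell in 4 in non-TFH cells. The shares over all genes were 15.6% higher and 15% lower for TFH cells, and 11.8% higher and 8.56% lower for non-TFH cells. Ctla4, the inhibitory relative of CD28, had the pattern of opposite directions seen for Lag3. It fell in TFH cells to 65.9 ± 4.8 FPKM in cKO, against 183 ± 16 FPKM in WT libraries, and rose in non-TFH cells to 31.6 ± 13 FPKM in cKO, against 12.4 ± 3.2 FPKM in WT libraries, a difference of -2.7 log2 (limma adjusted p = 0.00029). Ctla4 is also 1 of the 5 regulatory T cell markers, and Tnfrsf18 of that list likewise fell in TFH and rose in non-TFH cells. The part of regulatory T cells in this was not tested. Lair1, an inhibitory collagen receptor, fell by 2 log2 in TFH and by 1.29 in non-TFH cells (SE 0.25 each). Crtam, an adhesion receptor of activated T cells, fell by 1.9 log2 in TFH and by 1.94 in non-TFH cells (SE 0.29 each). Cd244, a SLAM family receptor of NK cells, had 0.682 to 1.03 FPKM in cKO and 3.13 to 4.49 FPKM in WT TFH libraries (-1.32 log2, SE 0.19). Its highest non-TFH value was 0.806 FPKM in cKO and 0.474 FPKM in WT libraries. Cd244 thus met the filter of 3 libraries only with WT TFH cells, where it was the higher, so its fall is a description. The 6 that fell in TFH cells include it. Cd84, a SLAM family adhesion receptor, fell by 0.87 log2 in TFH and by 1.37 in non-TFH cells (SE 0.09 each). Myeloid cells also make Lair1 and Cd244, and 11 of the 13 macrophage markers fell in TFH cells too, whose part in these falls was not tested.

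Among 22 tested signalling proteins, TFH cells had 4 that rose and 9 that fell, and non-TFH cells 2 that rose and 4 that fell. The 6 of 22 called in non-TFH cells are near the 20.3% of all genes called there, and 30.7% of all genes were called for TFH cells. Dok2, an adaptor that dampens receptor signalling, fell in TFH cells by 1.79 log2 and in non-TFH cells by 0.5 (SE 0.14 each). The smaller fall passed in 14 of 20 alternatives. Fyn, a kinase of the antigen receptor, went opposite ways. It fell in non-TFH cells by 2.1 log2 and rose in TFH cells by 0.87 (SE 0.12 each). Its 2 changes differed by 2.97 log2 (limma adjusted p = 6e-07). Among 20 transcription factors studied as regulators of inhibitory receptors, 2 rose and 8 fell in TFH cells, whereas 12 rose and 1 fell in non-TFH cells, and the median log2 change was -0.18 for TFH and 0.91 for non-TFH cells. Over all genes 15.6% rose and 15% fell in the TFH comparison, with a median of 0.04, and 11.8% rose and 8.56% fell in the non-TFH one, with a median of 0.03. Among TFH cells Irf4 (-1.68 ± 0.21), Prdm1 (-1.53 ± 0.28) and Nr4a1 (-1.24 ± 0.32), factors of activated lymphocytes, fell, and Tox2, a TFH-associated factor, rose by 1.56 ± 0.26. Tox2 rose in non-TFH cells too, by 2.01 ± 0.26, and its 2 changes did not differ detectably (-0.45, limma adjusted p = 0.46). The fall of Nr4a1 did not pass with array weights (adjusted p = 0.17). In non-TFH cells Eomes (2.93 ± 0.3), Nr4a1 (2.51 ± 0.32), Nr4a2 (2.36 ± 0.39) and Nfil3 (2.31 ± 0.25) rose. Eomes is also on the list of CD8 and NK markers, of which 4 rose and 2 fell in this comparison. The part of such cells in its rise was not tested. Nr4a1, an immediate early gene of antigen receptor signalling, had 130 ± 84 FPKM in cKO and 19.5 ± 0.94 FPKM in WT non-TFH libraries, so the cKO libraries varied widely.

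**Figure D4:**
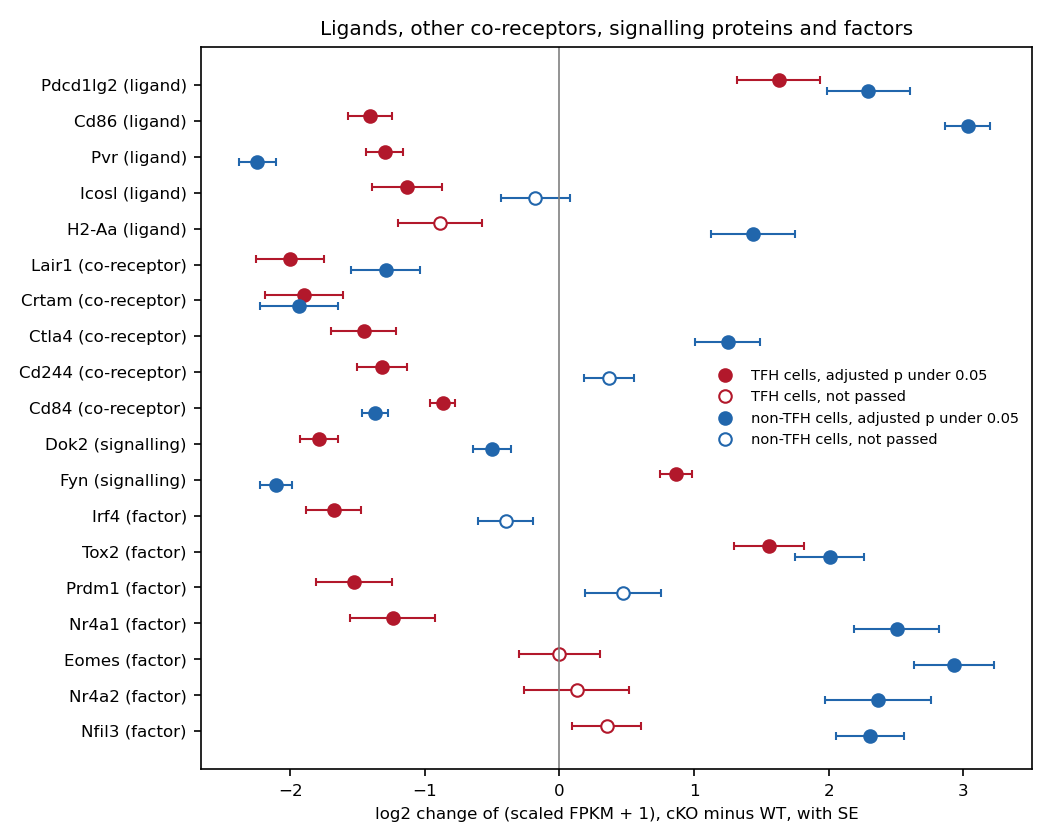
Change between genotypes (cKO minus WT, log2(scaled FPKM + 1), with SE from limma) of the genes of the 4 lists with the largest changes, in TFH and non-TFH cells. Filled points passed an adjusted p of 0.05. Cd86 lies at -1.41 in TFH and 3.03 in non-TFH cells, and Ctla4 at -1.46 in TFH and 1.25 in non-TFH cells.

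The genes most like each receptor across the 12 libraries were found by the root mean square (RMS) difference of log2 levels after subtracting each gene's mean over the libraries, where 0 would be an identical pattern. For Lag3 the nearest was Il10ra, a chain of the IL-10 receptor (RMS 0.18 log2), with 13.1 FPKM in cKO TFH, 33.2 in WT TFH, 23.4 in cKO non-TFH and 10.1 in WT non-TFH cells, followed by Marcks (0.3). For Cd160 it was S1pr2, a receptor that keeps cells in the follicle (0.29), with 101 FPKM in cKO TFH, 29 in WT TFH, 2.31 in cKO non-TFH and 2.16 in WT non-TFH cells, followed by Shmt1 (0.31). For Cd96 it was Adora2a, an adenosine receptor (0.16), followed by Arhgef12 (0.16). For Cd28 the nearest were Brk1 (0.074) and Tomm22 (0.076). For Cd200 they were Kpna2 and Spc24 (0.25 each), for Btla Nasp (0.26) and Mtif2 (0.27), and for Havcr2 Gatm (0.29) and Gfra2 (0.3). For Icos they were Mapre2 (0.22) and Rbms2 (0.3), and for Tigit Emc4 (0.41) and Tnfrsf9, a co-stimulatory TNF receptor (0.67). Pdcd1 was nearest to Cox20 (0.2) and to the joint entry of Taf6l and Tmem179b (0.47). Cox20, that joint entry, Rbms2 and Shmt1 are listed at 0 in every non-TFH library, and Emc4 in every WT non-TFH library, and such a 0 can be a failed estimate. Among the 10 themselves Cd200 and Cd160 were closest (0.43).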

How the data were processed

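Libraries of RNA extracted with Trizol were made by the TruSeq Stranded mRNA protocol, per the labels' protocols. The authors' deposited values are FPKM with confidence bounds, in 12 Cufflinks gene tracking tables, 1 per library. The submitters' processing notes name build mm10, the aligners Bowtie, Bowtie2, TopHat and TopHat2, the read tools cutadapt and FastQC, and Cuffdiff and Cufflinks, and the sources used here give no settings. The tables hold no counts.

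Symbols with a separate entry in 2 or more libraries per group were kept alone (22451 features), and entries of other symbols that shared one were summed (795 joint features). Entries that failed in Cufflinks were left missing. WT non-TFH replicate 1 had no value for 939 features, 665 of them on chromosome X and none of them a receptor described here. FPKM was divided by median-ratio factors (0.857 to 1.14), computed on 7162 features that reached 1 FPKM in all libraries. Tests covered the 11112 features that reached 1 FPKM in 3 or more libraries, as log2(FPKM + 1) with limma 3.58.1 in R 4.3.3, with 4 group means over all 12 libraries, a variance trend and robust moderation, and Benjamini-Hochberg adjustment to 0.05. Each SE is from this fit, and each SD is over 3 libraries. Exact two-sided permutation tests of 3 against 3 libraries cannot go below 0.1. The fit was tested on simulated data. Python 3.11.15, pandas 2.3.3, numpy 2.4.6 and matplotlib 3.10.9 were used.

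The receptors, the lists of partner genes and the tests were chosen with earlier results of these data known. All 10 receptors are described in each comparison. From each list, up to 4 genes per genotype comparison with the largest called changes of at least 2-fold are named, and for each receptor the 2 features with the smallest RMS difference. Alternatives were no scaling, quantile normalization, a pseudocount of 0.1, no filter, a filter at 5 FPKM, the compared groups alone, array weights, replicate blocks and leaving out each library.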

Additional observations from a re-analysis of the deposited data

Results flagged for a closer look

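The genotype change (cKO minus WT) differed between TFH and non-TFH cells for 7 of the 10 receptors, by the interaction term of limma. The difference, TFH minus non-TFH, was 0.91 log2 for Pdcd1, 1.36 for Btla, 0.77 for Cd200 and 1.91 for Cd160. It was -4.07 log2 for Tigit, -2.47 for Lag3 and -1.5 for Havcr2. The Pdcd1 value is a description, because the PD-1 negative gate holds Pdcd1 low in non-TFH cells of both genotypes. Havcr2 reached 1 FPKM in TFH libraries alone and so was tested only through them. Without these, 5 of 8 receptors passed. Each of the 7 passed under every alternative in which it was tested. The groups of 3 libraries are too small for a test of single outlying libraries.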

How the results depend on the processing

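The number of the 10 receptors called stayed within 1.5 times of the value given in every comparison and alternative run. Leaving out each library gave 6 to 7 calls for cKO against WT in TFH cells, 3 to 4 in non-TFH cells, 9 to 10 for TFH against non-TFH cells in cKO, 9 in WT and 7 to 8 for the interaction. Over all genes, the calls between genotypes numbered 3408 in TFH cells, against 2161 with the compared groups alone and 2221 with array weights. In non-TFH cells they numbered 2257, against 3895 with the groups alone and 4159 with array weights, and 1682 to 2462 over the left-out libraries. The cause was not tested. Signs flipped only for changes that did not pass: Cd28 between genotypes with quantile normalization (-0.0058 in TFH and -0.037 in non-TFH cells), and in non-TFH cells without cKO replicate 1 (-0.0023) or WT replicate 3 (-0.012; -0.012 to 0.12 over the left-out libraries); and Cd96 between cell types in WT mice on unscaled FPKM (0.27) and without WT TFH replicate 1 (0.095; -0.19 to 0.095 over the left-out libraries). Same-numbered libraries of compared groups did not deviate together (correlations -0.036 to 0.072 over 12 pairs), and the labels do not say whether they share a mouse, so they are treated as sharing only a number. With the replicate number as a block, 3231 genes were called between genotypes in TFH cells, 2102 in non-TFH cells and 1722 for the interaction. A block within genotype gave 1386 for the interaction. Of the 10 receptors the number block changed only the call of Cd96 between cell types in cKO mice (adjusted p = 0.048). Levels under 1 FPKM rest on few fragments, as the bounds of Havcr2 and of Tigit in WT non-TFH cells show.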

Other observations

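The stretch of chromosome 16 from 43648867 to 46120251 that holds Tigit, Btla, Cd200 and Cd96 holds 12 other tested genes. In cKO against WT TFH cells limma called 0 of these 12 higher and 3 lower (0 higher and 5 lower at an unadjusted p under 0.05), with a median log2 change of -0.24. In non-TFH cells 1 of the 12 was higher and 1 lower, with a median of 0.14. The shares called are near those over all genes, 30.7% for TFH and 20.3% for non-TFH cells.

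Without Pdcd1 the other 9 receptors summed to 836 to 851 FPKM in cKO TFH, 551 to 642 in WT TFH, 324 to 362 in cKO non-TFH and 275 to 284 in WT non-TFH libraries.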
